A study of Homo sapiens with 8 samples.

Results

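In VCaP prostate cancer cells, 2890 of 36122 merged GATA2-bound regions (8.0%) had a peak in both untreated chromatin precipitates and in 1 JQ1-treated precipitate, JQ1 replicate 2, but none in JQ1 replicate 1. Peaks of the 4 deposited lists on chromosomes 1 to 22, X and Y that overlapped by at least 1 bp were chained into regions, and regions with that pattern of presence were taken. The regions were chosen by the presence and absence of a peak in these lists, so their levels in them are descriptions and carry no test. They made up 45.4% of the 6365 regions found in both untreated lists (95% Wilson interval 44.2 to 46.6, counting error only). Of all 6712 regions of untreated replicate 1, 51.3% had no peak in JQ1 replicate 1.

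VCaP is an established human line of castrate-resistant prostate cancer. Cells of both groups were held in steroid-depleted medium for 72 h, and either 1 µM JQ1 or a vehicle, DMSO, was given over the final 24 h. The control samples are titled as non-treated and are called untreated here. Each treatment had 2 GATA2 precipitates and 2 inputs, from a single cell line, and the labels do not say whether the replicates came from separate cultures.

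GATA2 is a zinc-finger transcription factor that binds DNA at GATA sequences. In prostate cells it is known to open chromatin at enhancers of androgen-regulated genes. JQ1 displaces BET proteins from acetylated histones, and BET proteins are coactivators at many of the same enhancers.

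The regions lay mostly away from transcription starts, and 26 of 2890 (0.900%) overlapped a window of 300 bases around an annotated start, 250 of them before it. The 5 stretches printed here are the parts of the regions that fall within those 250 bases before the start, given to show the sequence where peak and promoter window meet. In EHF and NOBOX the summit of untreated replicate 2 lay further upstream, outside the stretch. They are RefSeq sequence of GRCh38.p14, 5′ to 3′ along the strand of the gene. Capitals mark a GATA hexamer on either strand, which is AGATAA or the variant ending in G, AGATAG, or with T as its first base TGATAA or, ending in G, TGATAG. TRAF3IP2 codes for an adaptor of interleukin-17 signalling (chr6:111567280-111567512, minus strand), RFESD for a Rieske iron-sulfur domain protein (chr5:95646527-95646730, plus strand) and EHF for an epithelial ETS factor (chr11:34632316-34632434, plus strand). MPP4 codes for a scaffold protein of photoreceptors (chr2:201698645-201698894, minus strand) and NOBOX for a homeobox factor of oocytes (chr7:144410312-144410477, minus strand), and their stretches held none of the hexamers. Of the 6 best-ranked promoter regions, 2 stretches held a hexamer, those of TRAF3IP2 and RFESD, and 4 held none, with NAALADL2 and LOC105372836 not printed. EHF, a gene of the panel of prostate genes, is not among the 6.
TRAF3IP2: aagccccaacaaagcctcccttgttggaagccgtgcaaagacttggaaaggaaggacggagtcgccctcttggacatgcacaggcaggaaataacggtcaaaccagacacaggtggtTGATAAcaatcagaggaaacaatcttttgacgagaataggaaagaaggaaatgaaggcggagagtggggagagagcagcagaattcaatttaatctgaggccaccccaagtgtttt
RFESD: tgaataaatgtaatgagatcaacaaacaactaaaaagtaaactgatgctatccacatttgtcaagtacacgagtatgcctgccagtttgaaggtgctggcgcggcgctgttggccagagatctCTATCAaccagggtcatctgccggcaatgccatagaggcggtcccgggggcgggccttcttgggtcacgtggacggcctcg
EHF: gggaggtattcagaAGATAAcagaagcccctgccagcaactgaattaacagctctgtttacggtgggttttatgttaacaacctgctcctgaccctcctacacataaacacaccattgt
MPP4: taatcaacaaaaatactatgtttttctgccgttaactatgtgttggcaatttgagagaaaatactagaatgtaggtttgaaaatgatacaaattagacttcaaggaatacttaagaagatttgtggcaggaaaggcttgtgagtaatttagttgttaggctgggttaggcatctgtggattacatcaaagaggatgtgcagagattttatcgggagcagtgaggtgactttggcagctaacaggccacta
NOBOX: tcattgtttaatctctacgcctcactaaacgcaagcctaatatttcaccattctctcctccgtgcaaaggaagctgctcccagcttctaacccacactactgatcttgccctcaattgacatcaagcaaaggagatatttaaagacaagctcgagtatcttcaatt

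Of the 27 promoter windows that these 26 regions overlapped, 19 (70.4%) held at least 1 of the 4 hexamers anywhere in their 300 bases, against 24.97% of 35116 windows in the table. For the regions present in all 4 lists the share was 65.9% of 41 windows. The summit of untreated replicate 2 lay within 17 of the 27 windows, and in 11 of them a hexamer was centred within 50 bp of it. In the TRAF3IP2 window that distance was 5.5 bp. At TRAF3IP2 the pileup, which is the number of reads stacked at the summit after the caller's scaling, was 19.97 times the genome background in untreated replicate 1, 35.3 times in untreated replicate 2 and 19.2 times in JQ1 replicate 2. At RFESD the same levels were 23.2, 32.2 and 36.5, so that JQ1 replicate 2 was the highest of the 3 there. A hexamer match describes the sequence and does not locate binding.

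The 4 lists differed in length more between replicates than between treatments. They held 6902 and 27373 peaks for untreated replicates 1 and 2, and 4974 and 32404 for JQ1 replicates 1 and 2. The genome background pileup, recovered from the deposited fold enrichment and p-value and used here as the effective depth, was 1.25, 1.34, 1.13 and 1.56 in the same order. The list that lacks the regions was therefore the shortest and had the lowest effective depth. In replicate 1, depth, list length and treatment move together and cannot be told apart. As deposited, the reverse pattern, a peak in every list but untreated replicate 1, was held by 1329 regions. These were 29.1% of the 4565 regions in both JQ1 lists and untreated replicate 2. The missing regions were 47.2% of the 6126 in both untreated lists and JQ1 replicate 2. With untreated replicate 1 cut to the length of JQ1 replicate 1, the count of missing regions was 1856 and that of the reverse pattern 1771.

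The regions missing from JQ1 replicate 1 were weak in untreated replicate 1 and moderate to strong in replicate 2. Their pileup over genome background had a median of 15.2 in untreated replicate 1 (lower to upper quartile 12.8 to 19.2), 32.2 in untreated replicate 2 (24.0 to 43.3) and 23.7 in JQ1 replicate 2 (16.6 to 32.6). Regions present in all 4 lists, 3236 in number, stood higher in each of these lists, with medians of 23.2, 54.2 and 44.2, and at 20.4 in JQ1 replicate 1. By the authors' −log10 q the median was 7.61, 31.2 and 24.3 for the regions missing from JQ1 replicate 1, and 15.1, 68.6 and 62.4 for those in all 4 lists. The ranges overlapped widely, from 6.39 to 51.1 times background in untreated replicate 1 for the former and from 6.39 to 206.1 for the latter.

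**Figure D1:**
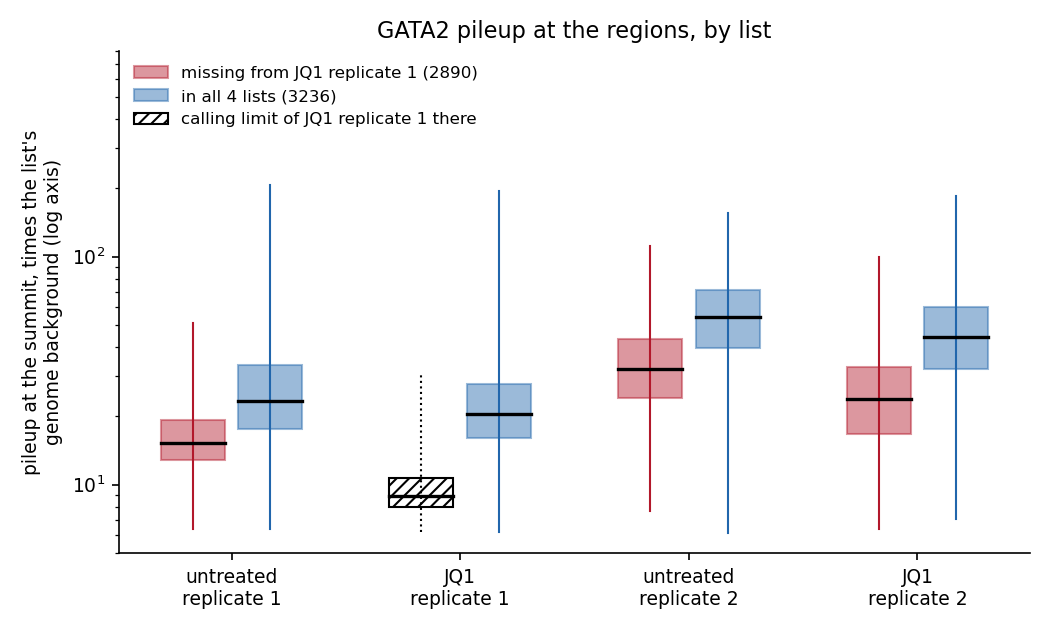
Pileup at the summit in each list, as a multiple of that list's genome background (log axis), for the 2890 regions missing from JQ1 replicate 1 and the 3236 in all 4 lists. Boxes span the quartiles, thick lines are medians and thin lines run from the lowest to the highest region. The hatched box is the level a call in JQ1 replicate 1 would have needed at the missing regions, with a median of 8.88. It assumes the local background of untreated replicate 1 scaled to the depth of JQ1 replicate 1.

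The share missing from JQ1 replicate 1 fell with the strength of binding in every other list. The 6126 regions present in both untreated lists and JQ1 replicate 2 were divided into 5 quintiles by pileup. Sorted by untreated replicate 1, 73.7% (95% Wilson interval 71.4 to 75.9) of the lowest quintile and 8.74% (7.26 to 10.5) of the highest were missing. Sorted by untreated replicate 2, the shares were 80.3% (78.0 to 82.4) and 8.35% (6.92 to 10.03). Strong regions among the missing ones were therefore few, with 153 of the 1367 regions in the top 20% of untreated replicate 1 by q-value and 27 of the 685 in its top 10%. In the longer list of untreated replicate 2, 1189 of the 2890 (41.1%) ranked in the top 20%.

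**Figure D2:**
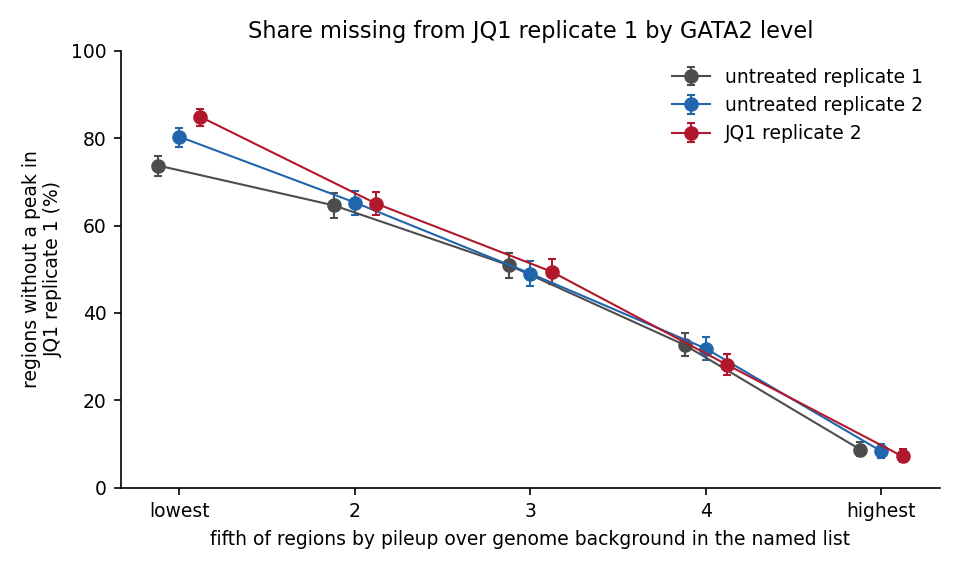
Share of regions without a peak in JQ1 replicate 1 (%) by quintile of pileup over genome background, with the regions sorted by untreated replicate 1, untreated replicate 2 or JQ1 replicate 2; bars are 95% Wilson intervals. All 3 curves descend, from between 73.7% and 84.9% in the lowest quintile to between 7.20% and 8.74% in the highest.

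The level that JQ1 replicate 1 would have needed for a call was computed for each region from the weakest p-value of its list (−log10 p 4.51). Its local background was taken to be that of untreated replicate 1 scaled to the lower depth, a ratio of 0.900. A median of 10 reads (range 7 to 35) would have sufficed, where untreated replicate 1 scaled to that depth gave a median of 17.1. For 78 regions (2.70%) the scaled level of untreated replicate 1 was itself under the limit, so that the level of untreated replicate 1 would not have been called at that depth. For the others, absence places JQ1 replicate 1 below untreated replicate 1 in pileup only if its local background was as assumed. The gap is then at least the ratio of the limit to the scaled level. Over all 2890, with these 78 included, that ratio had a median of −0.72 on the log2 scale, and 701 regions (24.3%) had a limit below −1. These limits rest on the counts of 1 library and carry its counting error. The local background of JQ1 replicate 1 at these regions is not known, and a higher one would raise the limits. Between the replicate 2 libraries, the log2 ratio of local background had a standard deviation of 0.84 over the missing regions.

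Few of the missing regions had a JQ1 replicate 1 peak close by. The nearest such peak was 51 bp away at the closest and 134 kb away at the median. It lay within 500 bp for 28 regions and within 10 kb for 277 (9.58%), and 1674 regions (57.9%) were over 100 kb from any. Absence thus rarely went with a JQ1 replicate 1 peak slightly to the side.

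At the threshold of the rule stood 3 regions with a −log10 q of 1.33 and 8 reads in untreated replicate 1. They lay 36.4 kb from TANK, a gene of an NF-κB pathway adaptor, inside SYNPO2, a gene of an actin-binding protein, and inside ADGRL3, a gene of an adhesion receptor. In untreated replicate 2 the same 3 regions had a −log10 q of 33.2, 36.5 and 35.8. Just outside the rule, the regions called most weakly in JQ1 replicate 1 lay inside HYCC2, 1.88 kb from CMPK1 and 302 kb from FLRT2.

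The best-ranked of the missing regions lay inside PDE4D, the gene of a phosphodiesterase that degrades cyclic AMP, at chr5:60374461-60374841 (hg38). Its pileup was 47.9 times the genome background in untreated replicate 1, 111.4 times in untreated replicate 2 and 99.9 times in JQ1 replicate 2. Its −log10 q was 46.5, 143.6 and 148.4 in these lists. No JQ1 replicate 1 peak lay within 211 kb, and the limit there was 4.15 times lower than the level of untreated replicate 1 scaled to the same depth. JQ1 replicate 2 thus kept a strong peak at the place where JQ1 replicate 1 had none.

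Next by mean rank over the 3 lists came a region 220 kb from MCTP2, a gene of a membrane protein with C2 domains, at chr15:94704193-94704824. Its levels were 51.1, 105.8 and 96.7 times background in untreated replicate 1, untreated replicate 2 and JQ1 replicate 2. A region 81.7 kb from AVPR1A, the gene of a vasopressin receptor, at chr12:63232860-63233387, had levels of 39.1, 76.7 and 60.8. Its limit was 4.90 times lower than untreated replicate 1, the furthest of all 2890 regions. That limit uses the local background of untreated replicate 1, 1.58 times genome background. The local background was 1.71 times in untreated replicate 2 and 4.73 times in JQ1 replicate 2. The other 9 of the first 12 included regions 327 kb from KLF4, a zinc-finger factor gene, 10.6 kb from ZWINT, a kinetochore gene, 120 kb from OSR1, a developmental zinc-finger gene, and 4.49 kb from KRT7, a gene of simple-epithelium keratin. They also included regions inside MACROD2, which codes for an enzyme that removes ADP-ribose, and inside QTMAN, and regions 3.64 kb from CYTIP, 19.6 kb from DCAF8L2 and 316 kb from POM121L12. In all 12, pileup was lowest in untreated replicate 1 and highest in untreated replicate 2, with JQ1 replicate 2 between. The KLF4 region was the one of these with a JQ1 replicate 1 peak within 10 kb, at 3.02 kb.

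**Figure D3:**
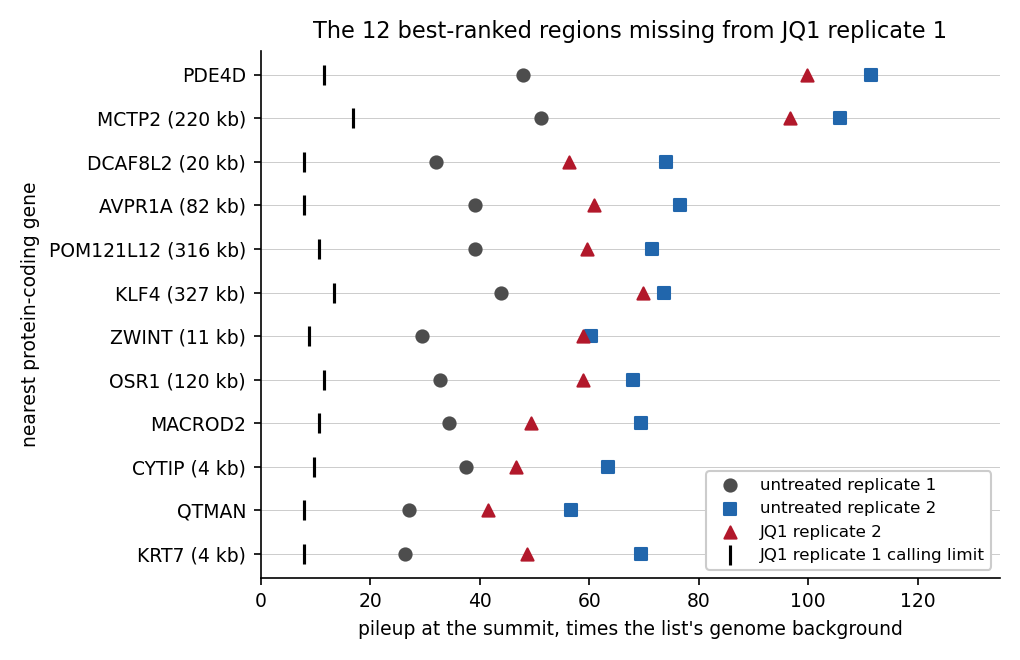
Pileup at the summit as a multiple of genome background for the 12 best-ranked missing regions, each named by its nearest protein-coding gene with the distance in kb where it lies outside the gene. Points are single libraries and the tick is the level a call in JQ1 replicate 1 would have needed, which lay to the left of all 3 measured levels in each region.

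In 8 regions the limit was below −2 on the log2 scale. Besides PDE4D and AVPR1A these included regions inside CHN2, a Rac GTPase-activating protein gene, inside NHSL1, inside KIAA1328 and inside ERG, and 36.5 kb from GPR42. ERG, an ETS factor that is fused to the androgen-driven TMPRSS2 gene in VCaP, held its region at chr21:38570432-38570687. The ERG levels were 40.7 times background in untreated replicate 1, 42.9 in untreated replicate 2 and 22.4 in JQ1 replicate 2. Untreated replicate 1 was thus nearly as high as untreated replicate 2 at ERG. At the median region it was lower, at 15.2 against 32.2. The local background at ERG was 2.26 times genome background in untreated replicate 1, the value its limit uses. It was 6.70 times in untreated replicate 2 and 5.32 times in JQ1 replicate 2. At GPR42 these backgrounds were 2.26, 5.21 and 6.51. With a higher background in JQ1 replicate 1, the limit would be less low. At CHN2 the levels were 34.3, 51.6 and 28.2, and at NHSL1 39.1, 67.0 and 34.6, with JQ1 replicate 2 the lowest of the 3 in both.

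In replicate 2, JQ1 and untreated can be compared at these regions, with 1 library for each treatment and so no test. Treatment and library cannot be told apart there. The rule required a peak in both libraries, so regions with no peak in JQ1 replicate 2 are left out of the ratio. The log2 ratio of JQ1 to untreated pileup, each over its genome background, had a median of −0.44 (quartiles −0.73 and −0.19), and 86.9% of the 2890 regions were below 0. It was −0.30 over the regions in all 4 lists and −0.20 over all 21173 regions with a peak in both replicate 2 lists. In 1060 regions (36.7%) pileup was over 1.5-fold lower with JQ1, against 19.4% of all regions in both replicate 2 lists. In 38 (1.31%) it was over 1.5-fold higher, against 9.35%. In the regions of all 4 lists 18.4% were over 1.5-fold lower and 1.92% over 1.5-fold higher. A small share of higher regions was therefore not particular to the missing ones. The 1329 regions of the reverse pattern had a median of 0.08. This comparison sits between libraries of unlike depth, with genome backgrounds of 1.34 and 1.56 after the caller's scaling. That scaling weighted reads by 0.686 in untreated replicate 2 and by 1.0 in JQ1 replicate 2. The 2 backgrounds therefore do not rank the libraries by unweighted reads. At the missing regions the median unweighted reads were 63 and 37. The part of depth in the comparison was not tested.

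By the authors' fold enrichment, which divides pileup by the local background after adding 1 to each, the same regions differed less. The median log2 ratio was −0.22 (quartiles −0.68 and 0.27), against −0.16 in regions of all 4 lists and −0.10 over all in both replicate 2 lists. By this measure 863 (29.9%) were over 1.5-fold lower, against 23.2% of all, and 374 (12.9%) over 1.5-fold higher, against 15.5% of all. In the regions of all 4 lists these shares were 27.4% and 13.6%. The local background moved with the calls. Its log2 ratio was 0.55 at the median of the regions lower by fold enrichment and −1.33 at the median of those higher by it, and 260 of these 374 had a pileup ratio below 0. Both measures placed 492 regions over 1.5-fold lower and 25 over 1.5-fold higher.

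**Figure D4:**
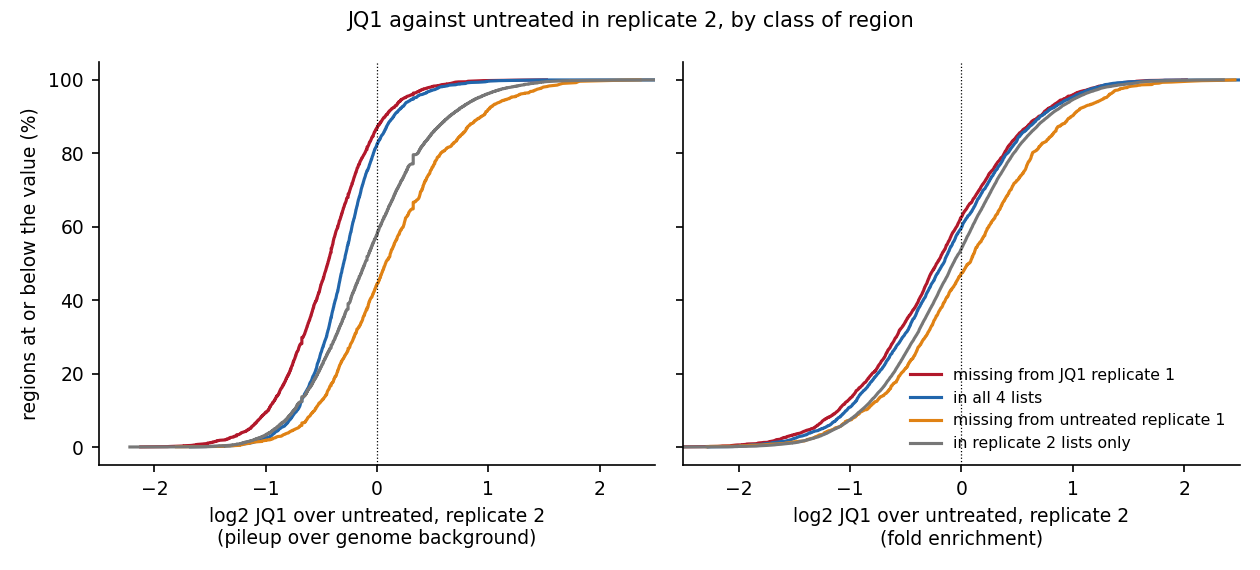
Cumulative share of regions (%) by log2 ratio of JQ1 to untreated in replicate 2, from pileup over genome background (left) and from the authors' fold enrichment (right), for 4 classes of region; each ratio compares 1 library with 1 library. Regions missing from JQ1 replicate 1 sit furthest left in both panels, with medians of −0.44 and −0.22, and those missing from untreated replicate 1 furthest right.

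The lower ratio of the missing regions depended on the list by which binding strength was matched. Within quintiles of untreated replicate 1 pileup, their median ratio was below that of regions in all 4 lists in 5 of 5 quintiles, from −0.38 against −0.16 in the lowest to −0.53 against −0.33 in the highest. Within quintiles of untreated replicate 2 it was also lower in 5 of 5. Within quintiles of JQ1 replicate 2 the order turned, and it was higher in 5 of 5, from −0.68 against −0.75 to −0.09 against −0.19. The untreated and JQ1 lists of replicate 2 are the 2 sides of the ratio, so sorting by either shifts it. Untreated replicate 1 is not part of the ratio, but it shares its treatment with the untreated side. The rule used every one of these lists, so none of the sortings is independent of the choice of regions.

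Among the missing regions, the replicate 2 ratio was lower where the limit computed for JQ1 replicate 1 was lower. That limit comes from untreated replicate 1 and holds no reads of JQ1 replicate 1, so the gradient does not compare the JQ1 replicates. The 119 regions with a limit below −1.5 on the log2 scale had a median pileup ratio of −0.60, and 53.8% of them were over 1.5-fold lower. The 829 with a limit above −0.5 had a median of −0.39, and 32.1% were over 1.5-fold lower. The same 2 classes differed in level, with a median of 27.2 and 11.98 times background in untreated replicate 1. Over the regions in all 4 lists the median ratio also fell with untreated replicate 1 pileup. It was −0.16 in the lowest quintile and −0.33 in the highest. The part of level in the gradient was not tested.

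The regions with the lowest and highest fold enrichment ratios showed how far pileup and local background could part. Inside EPHA3, an ephrin receptor kinase gene, the region at chr3:89344612-89345053 had pileups of 9.58, 58.8 and 18.6 times background in untreated replicate 1, untreated replicate 2 and JQ1 replicate 2. Its log2 ratio in replicate 2 was −2.57 by fold enrichment, the lowest of the missing regions with a −log10 q of at least 10 in a replicate 2 list, and −1.66 by pileup. The next lowest by fold enrichment lay inside CNTLN, a centriole gene, and inside RNF145, a ubiquitin ligase gene. Regions 2.06 kb from SYPL1, 387 kb from DTHD1 and 1789 kb from LOC124900173 followed. The pileup ratios of all these regions were smaller, from −0.64 at RNF145 to −0.99 at SYPL1. At RNF145 the local background was 1.63 times the genome background in untreated replicate 2 and 7.10 times in JQ1 replicate 2.

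At the other end stood a region inside CYTH1, a gene of an exchange factor for ARF GTPases, at chr17:78735731-78736103. Its log2 ratio was 2.02 by fold enrichment and −0.05 by pileup, with a local background of 8.19 times genome background in untreated replicate 2 and 1.48 times in JQ1 replicate 2. Regions inside TMEM150C, inside the phosphatase gene PPM1H, 59.1 kb from the receptor gene GPR63, 3.21 kb from COLEC12, a collectin gene, and inside SLC30A8, a zinc transporter gene, followed. Their pileup ratios were positive, from 0.32 at GPR63 to 0.91 at TMEM150C. The TMEM150C region had a JQ1 replicate 1 peak 0.547 kb away, and pileups of 17.6, 16.4 and 30.7 times background in untreated replicate 1, untreated replicate 2 and JQ1 replicate 2.

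In all, 2803 of 20037 protein-coding genes (14.0%) had at least 1 missing region within 50 kb of their span. Of these, 787 (28.1%) also had a region present in all 4 lists within 50 kb, against 13.6% of all protein-coding genes, and 2016 had none. Genes with a missing region were long, with a median span of 58.1 kb against 24.1 kb over all genes, so counts per gene follow span. MACROD2 and PDE4D had 10 each, beside 6 and 4 regions in all 4 lists. KCNMA1, a potassium channel gene, and NAALADL2 had 6 each.

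The 10 regions of MACROD2 had pileups of 15.2 to 34.3 times background in untreated replicate 1, 23.00 to 69.5 in untreated replicate 2 and 13.4 to 49.3 in JQ1 replicate 2, and the replicate 2 pileup ratio was below 0 in all 10 and the fold enrichment ratio in 8. In PDE4D these counts were 7 and 6 of 10. ADGRL2, CFTR, DLG2 and OPCML had 5 each. CFTR, the chloride channel gene of cystic fibrosis, was the most densely covered of these at 17.3 missing regions per Mb of span with flanks. Its 5 regions ran from 16.0 to 23.2 times background in untreated replicate 1, and their median replicate 2 pileup ratio was −0.85, and both it and the fold enrichment ratio were below 0 in all 5.

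Genes of 16 lists were read against the 14.0% of all protein-coding genes. Regions in all 4 lists lay within 50 kb of 13.6% of all genes. Luminal prostate transcription factors had a missing region within 50 kb in 12 of 30 genes and a region in all 4 lists in as many, 12 of 30, with 6 genes in both counts. GRHL1, an epithelial Grainyhead factor, held one at chr2:9969015-9969288, with levels of 20.8, 44.5 and 20.5 times background in untreated replicate 1, untreated replicate 2 and JQ1 replicate 2. A region 43.3 kb from GRHL2, its paralogue, had levels of 32.7, 52.6 and 36.5, and GRHL2 also had 2 regions in all 4 lists. A region 10.2 kb from XBP1, a secretory-pathway factor, had levels of 19.2, 44.0 and 41.0. For the lists that follow, the share of all 2890 missing regions with a replicate 2 pileup ratio below 0 was 86.9%, and the share over 1.5-fold lower was 36.7%. Over the 16 missing regions near luminal factors the ratio had a median of −0.41, with 13 below 0, and the fold enrichment ratio a median of −0.09.

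The panel of genes central to GATA2, androgen and BET biology had a missing region in 10 of 30 and a region in all 4 lists in 15 of 30. HOXB13, a prostate homeobox gene, had one 32.1 kb away at chr17:48760833-48761130 and no region in all 4 lists. Its levels were 19.2 times background in untreated replicate 1, 35.8 in untreated replicate 2 and 16.0 in JQ1 replicate 2, the lowest of the 3. The replicate 2 log2 ratio at HOXB13 was −1.16 by pileup but −0.08 by fold enrichment. Its local background was 6.70 times genome background in untreated replicate 2 and 2.96 times in JQ1 replicate 2. GATA2 itself had one 43.9 kb away at chr3:128435294-128435480, with levels of 14.4, 20.96 and 16.0. MYC had one 39.6 kb away, with levels of 19.97, 35.3 and 28.2.

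EHF had 3, including the promoter region printed above, and ERG had 2. CDK6, a cell-cycle kinase gene, held one inside its span, with levels of 19.97, 41.4 and 36.5 in the same order of lists. BRD2, a BET gene, had one 3.30 kb away, with levels of 11.2, 32.7 and 29.4. Over the 13 regions of the panel, 12 had a replicate 2 pileup ratio below 0, with a median of −0.30, and 2 were over 1.5-fold lower, a smaller share than over all missing regions. By fold enrichment the panel median was 0.14, on the other side of 0. The panel genes KLK3, KLK2, KLK4, TMPRSS2 and FOXA1 had no missing region within 50 kb and 1 to 3 regions in all 4 lists each.

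Of androgen-regulated genes, 9 of 33 had a missing region and 18 of 33 a region in all 4 lists. ZBTB16, a zinc-finger repressor, held the best-ranked at chr11:114183248-114183505, with levels of 34.3, 49.6 and 30.1. ALDH1A3, which makes retinoic acid, held one with levels of 23.2, 60.8 and 46.7, PTGER4, a prostaglandin receptor gene, had 2, and ZBTB10 had 1. Over the 13 regions of this list the median pileup ratio was −0.38, with 12 below 0, and the median fold enrichment ratio was −0.30.

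BET proteins and coactivators had a missing region in 7 of 28 genes and a region in all 4 lists in 8 of 28. NCOR1, a corepressor of nuclear receptors, held 3 inside its span, of which the best-ranked had levels of 20.8, 58.3 and 30.1. MLLT3 and AFF1, of the super elongation complex, had 2 each, and CREBBP, an acetyltransferase gene, had 1. The 11 regions of this list had a median pileup ratio of −0.59, with 6 over 1.5-fold lower. By fold enrichment the median was −0.10, with 2 over 1.5-fold lower.

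Genes often raised by BET inhibitors had a missing region in 4 of 15, and none of the 15 had a region in all 4 lists. These were TXNIP, a thioredoxin inhibitor, CLU, the chaperone clusterin, SAT1, which acetylates polyamines, and SERPINI1, a protease inhibitor. The CLU region lay 0.687 kb from the gene at chr8:27595875-27596230, with levels of 18.4, 28.1 and 23.04. Over the 5 regions of these genes the pileup ratio ran from −0.45 to 0.39, with a median of −0.20. The median fold enrichment ratio was −0.31. Genes often lowered by BET inhibitors had a missing region in 4 of 22, in FOSL1, CDK6, MYC and RUNX1. Their 5 regions ran from −1.51 to 0.04 by pileup, with a median of −0.20. By fold enrichment the median was 0.12, with 2 over 1.5-fold lower.

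**Figure D5:**
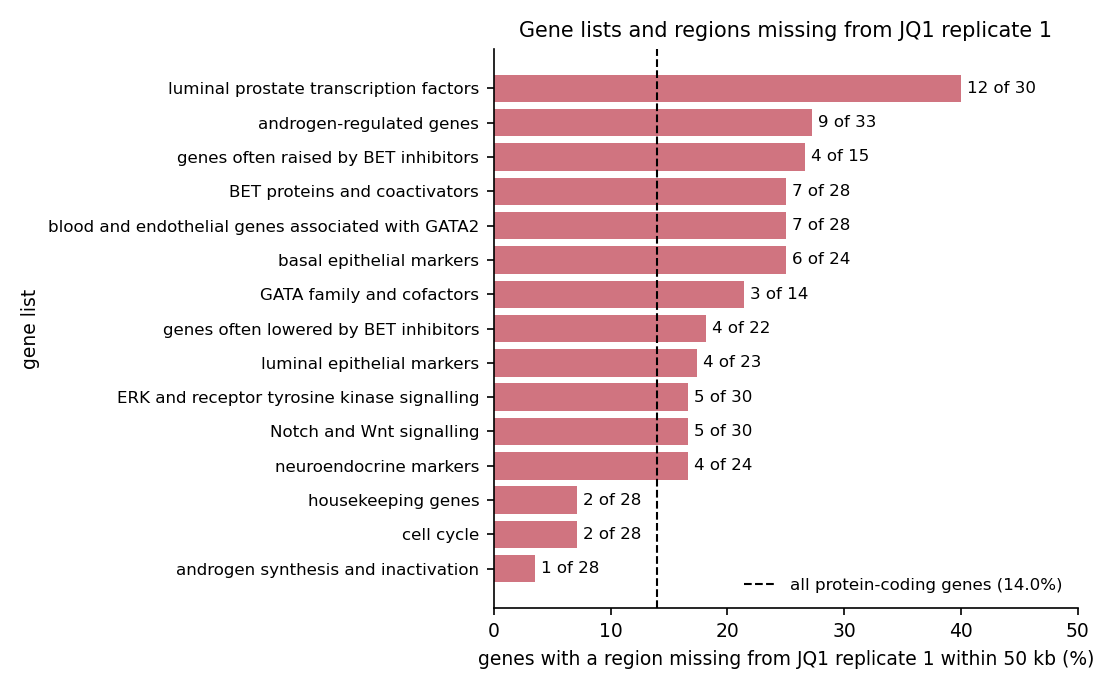
Share of genes of each list (%) with a region missing from JQ1 replicate 1 within 50 kb of the gene span, with the counts beside the bars; the dashed line is the 14.0% of all protein-coding genes. Luminal prostate transcription factors stand highest, at 12 of 30, and androgen synthesis and inactivation lowest, at 1 of 28.

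Lists of signalling pathways stood near the share of all genes, at 5 of 30 for ERK and receptor tyrosine kinase signalling and 5 of 30 for Notch and Wnt signalling. IRS1, the insulin receptor substrate gene, held a strong one at chr2:226772640-226772934, with levels of 38.3 times background in untreated replicate 1, 39.4 in untreated replicate 2 and 17.9 in JQ1 replicate 2. JQ1 replicate 2 was below both untreated libraries there. Regions of ERBB4, a growth factor receptor gene, EPHA3 and SPRED2, an inhibitor of ERK signalling, had pileup ratios of −0.68, −1.66 and −1.20 in replicate 2. At SPRED2 the fold enrichment ratio was 0.55, on the other side of 0. Over the 5 regions of that list the median was −1.13 by pileup, with 4 over 1.5-fold lower, and −0.62 by fold enrichment, with 3. Of the Notch and Wnt genes, TCF7L2, MAML3, MAML2 and JAG1 had the best-ranked regions, and the 7 regions of that list had a median of −0.71 by pileup and −0.28 by fold enrichment.

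Markers of other cell identities varied. Blood and endothelial genes associated with GATA2 had a missing region in 7 of 28, including PECAM1, FLI1 and ETV6, and GATA family genes and cofactors in 3 of 14, which were GATA4, GATA2 and ZFPM2. Basal epithelial markers had one in 6 of 24, including SNAI2, CD44, DST and TP63, and luminal epithelial markers in 4 of 23, including TRPM8, PSCA and ACP3. Neuroendocrine markers had one in 4 of 24, namely STMN2, SRRM4, CELF3 and POU3F2. Cell cycle genes, housekeeping genes and genes of androgen synthesis and inactivation had one in 2 of 28, 2 of 28 and 1 of 28. Regions in all 4 lists lay near 6, 2, 4, 6 and 2 genes of these blood, GATA, basal, luminal and neuroendocrine lists, and near 6, 4 and 6 of the cell cycle, housekeeping and androgen synthesis lists. Cell cycle and housekeeping genes are short, with median spans of 16.5 and 8.24 kb against 24.1 kb over all genes. The median of the androgen synthesis list, 25.9 kb, was close to the 26.4 kb of luminal transcription factors. Several lists above 14.0% held long genes. Their medians were 82.1 kb for BET proteins and coactivators, 68.7 for ERK, 65.7 for GATA and 51.3 for androgen-regulated genes. The Notch and Wnt, blood, panel and basal medians were 41.4, 38.9, 38.7 and 36.3 kb. Genes raised or lowered by BET inhibitors and luminal epithelial and neuroendocrine markers also stood above 14.0%, with medians below 24.1 kb. The part of span in these shares was not tested.

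The missing regions lay inside genes about as often as those in all 4 lists, and somewhat more often near gene ends. Their summits lay inside a protein-coding gene span in 51.6% (95% Wilson interval 49.8 to 53.4), against 49.4% (47.7 to 51.2). They lay within 1 kb of an end of a span in 2.39% (1.89 to 3.01), against 1.85% (1.44 to 2.38). Within 3 kb the shares were 7.06% (6.18 to 8.05) and 5.35% (4.62 to 6.18). Of the missing regions 19.5% lay over 100 kb from any span, against 22.4%. The exons and introns under them were not analysed here. The missing regions were narrower, with a median width of 300 bp against 394 bp. Width spans the chained peaks of 3 lists for the missing regions and of 4 for the others, so the measures are unlike. Of the missing regions 92.2% had a single summit in each of their 3 lists, against 84.5% over the lists of the others. Summits of the same region in both replicate 2 lists lay within 50 bp of each other in 97.2%, with a median gap of 9 bp.

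By nearest neighbour, missing regions did not gather beyond their overall share. Among the 6126 regions present in both untreated lists and JQ1 replicate 2, the nearest neighbour of a missing region was itself missing in 46.5%, and 47.2% of all were missing. By chromosome the share missing ran from 37.2% (29.1 to 46.1) on chromosome 21 to 57.8% (45.6 to 69.1) on chromosome 16, apart from chromosome Y, which held 6 regions. It was 57.1% (49.4 to 64.4) on chromosome 20 and 55.2% (47.5 to 62.6) on chromosome 17. The intervals of chromosomes 17, 20 and 21 did not hold the overall 47.2%. No test was run over the chromosomes.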

How the data were processed

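GATA2 was measured by ChIP-seq in VCaP cells, in 4 precipitates and 4 inputs, of which the 4 precipitates' peak lists were used. Per the submitters' processing notes, the authors used Bowtie2, Picard and MACS2 with build hg38, with no version given in the sources used here. Each deposited list, per the labels, belongs to 1 precipitate, so peaks were called per sample. The deposited score was left unused. The deposited fold enrichment is a linear ratio at the summit, and the deposited −log10 p-value and −log10 q-value are the authors' own. They rank and describe peaks within a list.

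Whole reads, pileup and local background were recovered from fold enrichment and p-value. In untreated replicate 2 reads carried a weight of 0.686, and 1 peak in all missed its deposited −log10 p by over 0.001. Recovery was tested on simulated data. The read depth is not in the lists, so the genome background pileup stands for it. Where a region held several peaks of a list, the best was taken.

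Genes came from RefSeq tables of GRCh38.p14, and all 357 genes of 16 lists matched. Named are the nearest genes of the 12 best-ranked regions and of the 6 lowest and 6 highest fold ratios among the 2771 regions with −log10 q of 10 or more in a replicate 2 list, the 6 genes with most regions, panel genes, up to 4 genes per other list, the 6 best promoter regions and the regions at the threshold. The 8 lowest limits, DLG2 and OPCML, which tied with named genes, panel genes with no missing region, the EHF promoter and the choice of sequences were added after their values were seen. The regions and lists were chosen with earlier results of these data known. No test was run, since the rule used these lists and JQ1 replicate 1 has no value at the regions. A few genes that the naming rule takes are not reported here. Shares carry 95% Wilson intervals. Alternatives varied list length, q-value, overlap, the lists used, the measure, summits and gene windows. Python 3.11.15, numpy 2.4.6, pandas 2.3.3, scipy 1.17.1 and matplotlib 3.10.9 were used.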

Additional observations from a re-analysis of the deposited data

How the results depend on the processing

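Of 21 alternatives, 12 kept the value within its limit of 1.5-fold or of the spread, 9 moved it and 0 reversed it. The number of regions missing from JQ1 replicate 1 was 471 with every list cut to the shortest length and 1856 with untreated replicate 1 cut to the length of JQ1 replicate 1. The mirror set, missing from untreated replicate 1, held 455 and 1771 under these lengths, against 1329 as deposited, so that the excess of missing regions over the mirror set narrowed to near equality. Leaving out 1 list at a time gave 2998 to 16609, the highest without untreated replicate 1. Other thresholds and overlaps gave 2144 to 2862. The median replicate 2 log2 ratio was −0.22 by fold enrichment, −0.44 by pileup and −0.46 by pileup less background. By pileup, an alternative for the counts added after seeing the data, 38 regions were over 1.5-fold higher, against 374 by fold enrichment. Genes with a missing region numbered 1524 within 10 kb and 4318 within 100 kb. Summits lay within 3 kb of a gene end in 7.06%, against 5.35% for the regions in all 4 lists. No paired analysis was possible because JQ1 replicate 1 has no peak, and so no value, at these regions.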

Other observations

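Read along the 6126 regions present in both untreated lists and JQ1 replicate 2, of which 47.2% were missing from JQ1 replicate 1, some missing regions followed each other without a break. The run length to be had from such a share was not computed, so the runs are given only as places. The nearest neighbour of a missing region was missing in 46.5%. The share missing was 55.2% on chromosome 17 and 57.1% on chromosome 20. The longest run held 10 on chromosome 17 from 57231020 to 59367161 (hg38), 2.14 Mb from MSI2, which codes for an RNA-binding protein, to YPEL2. Its median pileup was 12.8 times genome background in untreated replicate 1, 33.5 in untreated replicate 2 and 17.3 in JQ1 replicate 2, and the replicate 2 ratio was below 0 in all 10, where the share over all missing regions was 86.9%. JQ1 replicate 1 had 3 peaks in that interval at other places. Runs of 9 lay on chromosome 2 from LNPK to SESTD1 and on chromosome 20 from CHMP4B to TTI1, with 6 and 8 of their regions below 0.

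Several genes had 4 missing regions and none in all 4 lists within 50 kb. Among them, RIN2, a RAB5 exchange factor gene, SH3RF1, a gene of a scaffold with ubiquitin ligase activity, and SLC9A9, a sodium and proton exchanger gene, each held all 4 inside their span. NKIRAS1 and RPL15 overlap and shared theirs, as neighbours, and TPH1 and SAAL1 lie side by side on chromosome 11.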
